A study of Mus musculus with 3 samples.

Results

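The genes described here code for the cell junctions of epithelia, the contacts that seal neighbouring cells together and hold them in a sheet. They were taken by symbol from the gene table of the array, and comprised the claudins (Cldn plus a number), desmogleins, desmocollins, plakophilins and zonula occludens proteins (Tjp1 and Tjp3), together with Ocln, Cgn, Marveld2, Marveld3, F11r, Dsp, Jup, Cdh1, Ctnna1, Ctnnb1, Ctnnd1 and Epcam. In all, 44 of the 18194 genes with a probe set of their own belonged to the group, 27 of them of the tight junction (20 claudins and 7 others), 4 of the adherens junction and 12 of the desmosome, with Epcam described by itself. Jup, which sits in both adherens junctions and desmosomes, was counted with the desmosome. Of the same families, Cldn17, Cldn20, Cldn24, Dsg1c, Dsg3 and Dsg4 had no probe set naming them alone and were not analysed here.

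RNA of 3 cell lineages of the mouse stomach was compared, namely acid-secreting parietal cells, enzyme-secreting zymogenic cells and mucus-secreting pit cells, with no treatment, strain, genotype or age given. Each lineage was collected by laser-capture microdissection, which cuts chosen cells from a tissue section, with spots of 7.5 µm, and 3000 to 5000 cells from 4 to 5 mice were pooled to 20 ng of RNA and measured on 1 Affymetrix Mouse Genome 430 2.0 array. Parietal cells were chosen by the lectin DBA and autofluorescence in the pit zone, pit cells by E-cadherin staining without DBA in the same gastric units, and zymogenic cells by E-cadherin staining without DBA or the lectin GSII at the base of units on other slides. E-cadherin, the protein of Cdh1, thus served to choose 2 of the 3 lineages. With 1 array per lineage there was no replicate error and no test, for zymogenic cells the lineage and the slides cannot be told apart, and every difference below is one between these 3 arrays. In such collections, fewer cells of a type and less RNA per cell cannot be told apart.

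Tight junctions lie nearest the lumen, where claudins and occludin span the gap between cells and zonula occludens proteins tie them to actin. Adherens junctions lie below them and join neighbouring cells through E-cadherin, whose tail is bound by catenins that link it to actin. Desmosomes are spot-like contacts in which the cadherins desmoglein and desmocollin are coupled by plakoglobin, plakophilins and desmoplakin to keratin filaments. In the stomach, these contacts keep acid and pepsin out of the tissue and hold the secretory cells in place.

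The values are intensities in linear units as deposited, 1 per probe set and array, and the probe set with the highest mean stands for its gene. A detection floor of 23.3 separated signal from background. It was set by 80 probe sets for olfactory and vomeronasal receptors, as the largest of the 3 values that their 95th percentile took. Lower values were set to the floor before taking log2, so that a fold against such a value is a lower bound, written as "at least". Over 785 combinations of gene and array pair, log2 ratios from probe sets sharing a gene scattered with an SD of 0.48, which describes the scatter of the measurement alone.

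The collections were checked by marker genes. Of 13 pit markers, 13 were above the floor in pit, 12 in parietal and 2 in zymogenic cells, with summed intensities of 17439, 22901 and 245. Of 12 zymogenic markers, 9 were above it in zymogenic, 5 in parietal and 3 in pit cells (summed 27313, 1491 and 246), and of 12 parietal markers 6 were above it in parietal, 5 in zymogenic and 4 in pit cells (5848, 1309 and 561). Of the proton pump subunits, Atp4b was highest in parietal cells (4402, with 793 for zymogenic and 102 for pit cells) and Atp4a was not (214, 261 and 12.5 in the same order). Kcnq1, a potassium channel of parietal cells, was likewise higher in the zymogenic collection (29.1, 60.5 and 3.71). Enteroendocrine markers were also present on the zymogenic array, with 5 of 7 above the floor there, 0 in parietal and 1 in pit cells (summed 969, 45.0 and 67.4, with Hdc at 0 on the parietal array). The part of the pit markers on the parietal array and of the enteroendocrine markers on the zymogenic array in the results below was not tested.

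Of the 44 junction genes, 19 exceeded the floor on at least 1 array, or 43.2%, against 22.7% of all genes. They comprised 8 of 27 tight junction genes, 4 of 4 adherens junction genes, 6 of 12 desmosome genes and Epcam. The parietal and pit arrays each had 15 junction genes above the floor (34.1%) and the zymogenic array had 8 (18.2%). Over all genes the shares were 15.4% on the parietal, 14.4% on the pit and 12.6% on the zymogenic array. Among the 19, 13 were lowest on the zymogenic array after values were raised to the floor, or 68.4%. The share was 34.3% of all genes above the floor somewhere. On the pit array 11 were highest as deposited (57.9% against 34.0%). The plot of all 19 genes by array shows this order, with the zymogenic symbol to the left for most genes and to the right for Cldn3 and F11r.

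**Figure D1:**
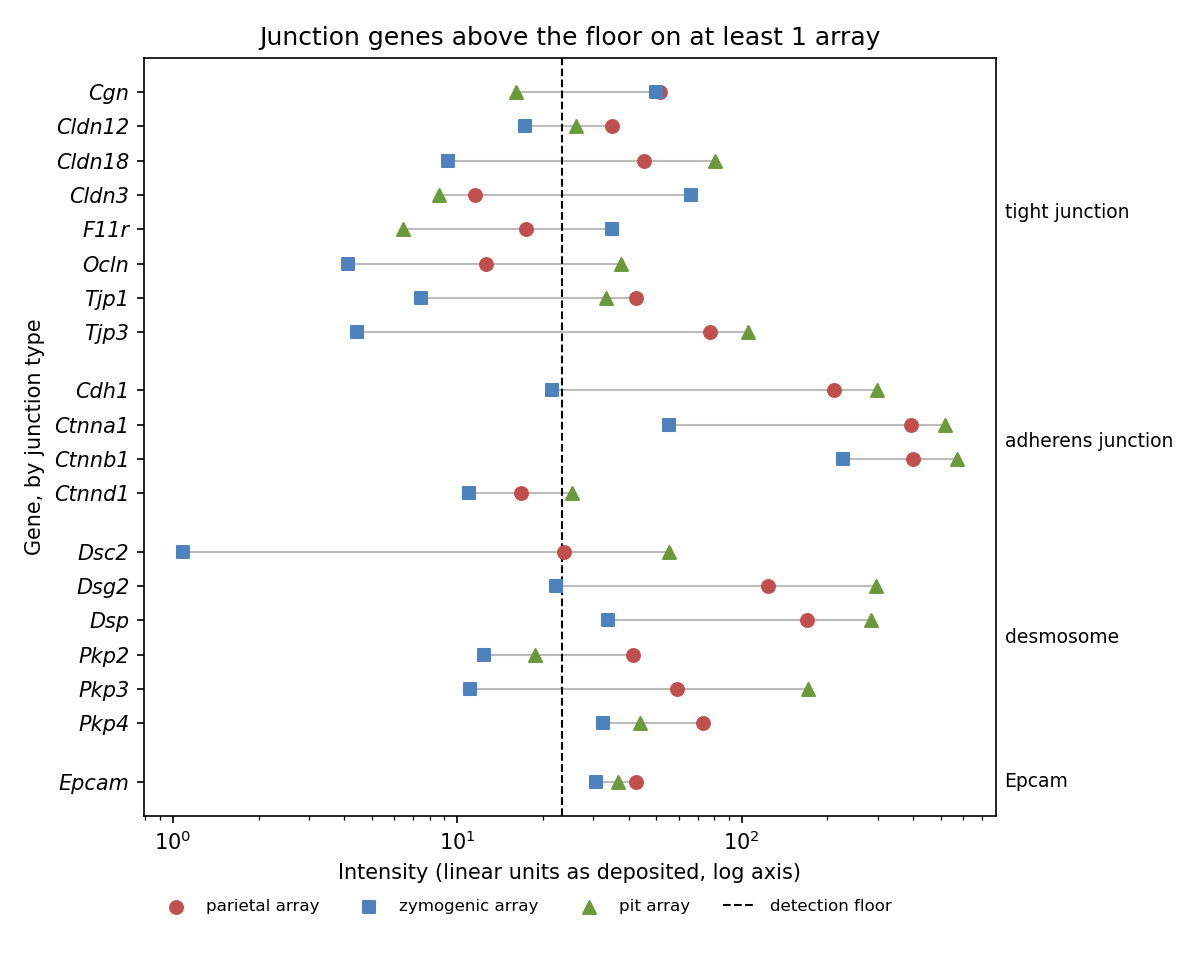
Intensity of the 19 junction genes above the detection floor on at least 1 array, grouped by junction type, on a log axis, with 1 symbol for each of the parietal, zymogenic and pit arrays and the floor of 23.3 as a dashed line. For Cdh1, Ctnna1, Dsg2 and Dsp the zymogenic symbol lies well to the left of both others, while Cldn3 lies above the floor in zymogenic cells alone.

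As deposited, all 4 adherens junction genes were highest on the pit array, and Cdh1, Ctnna1 and Ctnnb1 were lowest on the zymogenic array. The order of parietal and pit arrays depended on the scaling. Scaled to the bacterial hybridisation controls BioB and BioC, the log2 difference of parietal minus pit was 0.74 for Cdh1 and 0.83 for Ctnna1. For Ctnnb1 and Ctnnd1 it was 0.71 and 0.58. Cdh1, which codes for E-cadherin, had an intensity of 211 in parietal, 21.5 in zymogenic and 298 in pit cells. The zymogenic value lay just under the floor, so that Cdh1 was at least 12.8-fold lower there than on the pit array and at least 9.09-fold lower than on the parietal array. The parietal and pit values differed by 1.41-fold, a log2 difference of -0.49 that is close to the scatter between probe sets. Cdh1 has 1 probe set on the array, so this measurement has no second reading. It was low on the array of cells that had themselves been chosen by E-cadherin staining.

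Ctnna1 codes for alpha-catenin, which couples the cadherin complex to actin. Its intensity was 394 in parietal, 55.5 in zymogenic and 519 in pit cells, all above the floor, so that the zymogenic value was 9.37-fold below the pit value and 7.10-fold below the parietal value. A further probe set of Ctnna1 read 363, 53.1 and 444 on the same arrays. Alpha-catenin RNA thus had the same order of arrays in both readings.

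Ctnnb1, which codes for beta-catenin, the partner that binds the E-cadherin tail and also acts in Wnt signalling, showed the same order with a smaller gap. It stood at 399 in parietal, 227 in zymogenic and 572 in pit cells, 2.52-fold lower on the zymogenic than on the pit array and 1.76-fold lower than on the parietal array. After quantile normalization these log2 differences were -0.70 and 0.041 in place of -1.33 and -0.81, so that the gap between zymogenic and parietal arrays depended on the scaling. The gap between the catenins did not. All values of both genes were above the floor, so that a factor applied to a whole array cancels in this gap by construction. The log2 difference between the zymogenic and pit arrays was 1.89 higher for Ctnnb1 than for Ctnna1, and 2.07 higher after quantile normalization, and the corresponding values against the parietal array were 2.02 and 2.21.

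Ctnnd1, which codes for p120-catenin, a protein that keeps E-cadherin at the membrane, was close to the floor throughout. It had intensities of 16.7, 11.03 and 25.3 on the parietal, zymogenic and pit arrays, and only the pit value was above the floor. A further probe set had its highest value, 21.0, on the zymogenic array and was under the floor everywhere. Of Ctnnd1 the arrays therefore give no usable difference between lineages.

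Desmosome genes showed the same low values on the zymogenic array, and several were also higher on the pit than on the parietal array. Dsg2, the desmoglein of simple epithelia, read 123 in parietal, 22.2 in zymogenic and 297 in pit cells. It was at least 12.8-fold lower on the zymogenic than on the pit array, at least 5.31-fold lower than on the parietal array, and 2.41-fold lower on the parietal than on the pit array. A further probe set of Dsg2 gave 92.7, 25.3 and 321 on the same arrays, the same order. Its remaining probe sets were under the floor everywhere, and 1 of them was highest on the zymogenic array, at 12.7, 17.6 and 13.9. With the mean over all 6, the log2 difference was -0.78 for zymogenic minus parietal cells, in place of -2.41. For zymogenic minus pit cells it was -2.24 in place of -3.67. Dsc2, the desmocollin that pairs with Dsg2, read 23.7, 1.08 and 55.7 on the parietal, zymogenic and pit arrays. Dsc2 was 2.35-fold lower on the parietal than on the pit array, with the parietal value just above the floor.

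Dsp codes for desmoplakin, the linker to keratin filaments. Its intensity was 169 in parietal, 33.7 in zymogenic and 286 in pit cells, 8.47-fold and 5.01-fold lower on the zymogenic array than on the pit and parietal arrays. A further probe set read 112, 18.0 and 130, with the zymogenic value under the floor. Jup, which codes for plakoglobin, was under the floor on all 3 arrays, with values of 7.51, 2.05 and 19.7 on the parietal, zymogenic and pit arrays from its only probe set.

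The plot of paired readings for genes with a second detected probe set shows that Ctnna1, Dsg2 and Dsp kept their order of arrays. Of the 19 genes, 16 have further probe sets, and those of the other 12 were under the floor on every array, while Cdh1, Tjp1 and Tjp3 have a single one. The probe sets of Ctnna1, Dsg2, Dsp and Cldn3 beyond the second were also under the floor on every array.

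**Figure D2:**
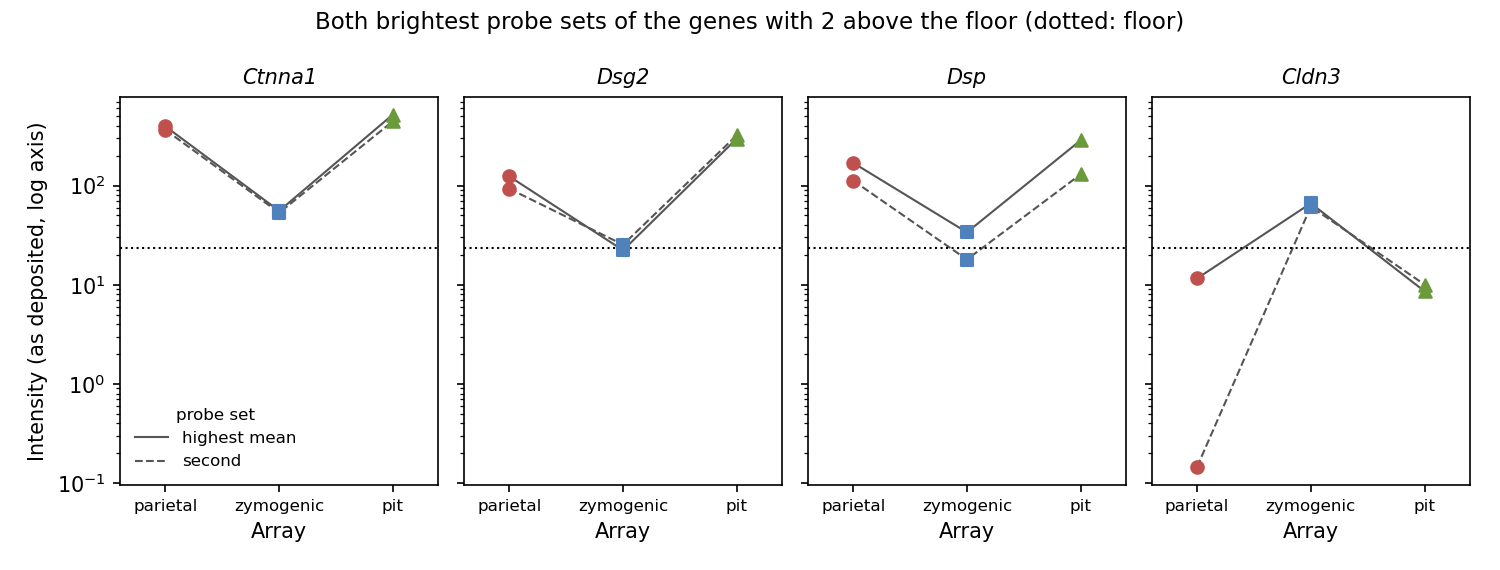
Intensity of the brightest and the second probe set of Ctnna1, Dsg2, Dsp and Cldn3 on the parietal, zymogenic and pit arrays, on a log axis, with the floor of 23.3 dotted. Both lines dip on the zymogenic array for Ctnna1, Dsg2 and Dsp and peak there for Cldn3.

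The plakophilins, which brace the desmosomal plaque from the side, divided between lineages. Pkp3, found in desmosomes of most epithelia, read 59.0 in parietal, 11.05 in zymogenic and 171 in pit cells, and was thus 2.89-fold lower on the parietal than on the pit array and at least 7.33-fold lower on the zymogenic array than on the pit array. Pkp2, the plakophilin of simple epithelia and heart, had the opposite order of parietal and pit arrays, at 41.4, 12.4 and 18.7 on the parietal, zymogenic and pit arrays. Pkp4, a relative also found at adherens junctions, was likewise highest on the parietal array, at 73.3, with 32.5 in zymogenic and 43.9 in pit cells.

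Pkp3 and Pkp4 were above the floor on both the parietal and pit arrays, so that a factor applied to a whole array cancels in their gap by construction. The log2 difference between the parietal and pit arrays was 0.74 for Pkp4 and -1.53 for Pkp3, a gap of 2.27, which was 2.21 after quantile normalization. For Pkp2 against Pkp3 the gap was 2.37, with the pit value of Pkp2 raised to the floor, so that such a factor does not cancel. It was 2.19 after quantile normalization and 2.18 with BioB and BioC scaling. With the mean over probe sets, or transcript-specific ones, Pkp2 was under the floor on both arrays and gave no gap. The SD of 0.48 between probe sets of 1 gene is not the error of these gaps. It describes a single log2 ratio above the floor on both arrays, while each gap takes the difference of 2 ratios. The pit value of Pkp2 was also under the floor, so that the gaps have no measure of error of their own. The further probe sets of Pkp2, Pkp3 and Pkp4 were under the floor on every array.

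The measured cadherins and plakophilin of stratified epithelia were not detected. Dsg1a, Dsg1b, Dsc1, Dsc3 and Pkp1, which are known from skin and the squamous forestomach, had values between 0.49 and 14.7 on the 3 arrays, all under the floor. In the RefSeq gene table, the desmogleins and desmocollins lie together in a single cluster of genes. Of those measured, the members for simple epithelia, Dsg2 and Dsc2, were the only ones above the floor here. Dsg1c, Dsg3 and Dsg4 had no probe set naming them alone, so that nothing is known of them from these arrays. Of 13 squamous markers, 0 were above the floor in parietal, 2 in zymogenic (Krt4 and Sprr1a) and 1 in pit cells (Sprr1a), with Krt13 at 0 in zymogenic cells.

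Tight junction genes had no common order of arrays. Cldn18, the claudin best known from the stomach, where it limits leakage of acid, had an intensity of 45.3 in parietal, 9.27 in zymogenic and 80.2 in pit cells. It was at least 3.45-fold lower on the zymogenic than on the pit array and 1.77-fold lower on the parietal than on the pit array. Cldn3, a barrier-forming claudin of many epithelia, had the reverse order, with 66.1 on the zymogenic array against 11.6 and 8.59 on the parietal and pit arrays. Both other arrays had it under the floor, which makes the zymogenic excess at least 2.84-fold.

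A further probe set of Cldn3 gave 61.3 on the zymogenic array against 0.15 and 10.05 on the parietal and pit arrays. The remaining probe sets of Cldn3 were under the floor on all arrays, at most 12.8. None of the 4 is marked as specific to 1 transcript, and with the mean over them the log2 difference against either other array was 0.62 in place of 1.51. Cldn4, which lies beside Cldn3 in the RefSeq gene table, was under the floor, with 6.75, 6.42 and 5.26 on the parietal, zymogenic and pit arrays. Enteroendocrine markers were high on the same array as Cldn3, as given above, and their part in its value was not tested.

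Cldn12 was the third claudin above the floor, at 35.1 in parietal, 17.2 in zymogenic and 26.03 in pit cells, which are all within 1.51-fold of each other once raised to the floor. The other 17 claudins (Cldn1, Cldn2, Cldn4 to Cldn11, Cldn13 to Cldn16, Cldn19, Cldn22 and Cldn23) were under the floor on every array, with values from 0.031 to 22.7. Cldn15, at 21.0, 22.3 and 22.7, and Cldn13, at 21.7 on the parietal array, came nearest to it. Cldn5, a claudin of blood vessels, read 3.75, 9.86 and 8.17 on the parietal, zymogenic and pit arrays, and 0 of 8 endothelial markers were above the floor on any array, the highest value being 16.9.

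Among the scaffolds that anchor claudins to actin, Tjp3, which codes for ZO-3, was the most unequal. It had an intensity of 77.6 in parietal, 4.43 in zymogenic and 105 in pit cells, and was at least 4.51-fold lower on the zymogenic than on the pit array and at least 3.34-fold lower than on the parietal array. Tjp1, which codes for ZO-1, read 42.3, 7.45 and 33.2 on the parietal, zymogenic and pit arrays, at least 1.82-fold and 1.43-fold lower on the zymogenic array than on the parietal and pit arrays. Cgn codes for cingulin, a further scaffold, and its order was different, at 51.6, 50.1 and 16.1. The other probe set of Cgn was under the floor on all arrays and highest, at 22.9, on the pit array, so that the low pit value of Cgn was not shared. With the mean over both probe sets, the log2 difference of Cgn was 0.27 for zymogenic minus pit and 0.43 for parietal minus pit cells, in place of 1.11 and 1.15.

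The transmembrane proteins other than claudins were close to the floor. Ocln, which codes for occludin, was above the floor on the pit array alone, at 37.5 against 12.6 and 4.13 on the parietal and zymogenic arrays. F11r, which codes for the junctional adhesion molecule JAM-A, was above it on the zymogenic array alone, at 35.0 against 17.4 and 6.42 on the parietal and pit arrays. The arrays under the floor were at least 1.61-fold lower for Ocln and at least 1.51-fold lower for F11r. With the floor at 10.9, the log2 difference of zymogenic minus pit cells was -1.78 for Ocln and 1.68 for F11r. With BioB and BioC scaling, that of F11r between zymogenic and parietal cells was -0.22, so that its order depended on the scaling. Marveld2 (tricellulin, which seals the corners where cells meet) and Marveld3 were under the floor everywhere, at most 11.04.

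Epcam, a surface protein of epithelia that stabilises claudins, differed least of the 5 junction genes detected in every lineage. It read 42.4 in parietal, 30.6 in zymogenic and 36.7 in pit cells, so that the lowest and highest were 1.38-fold apart, or 0.47 on the log2 scale, which is within the probe set SD of 0.48. A further probe set was under the floor everywhere, with values of 7.17, 4.10 and 17.8. With BioB and BioC scaling, the log2 difference of Epcam between zymogenic and parietal cells was -1.70 in place of -0.47.

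Promoters of 4 of these genes are shown because they stand for both orders of arrays, Tjp3 and Dsp for genes low on the zymogenic array and Cldn3 and F11r for genes above the floor there alone. Each is the 250 bases before the first start listed by RefSeq (assembly GRCm38.p6), written 5′ to 3′ on the strand of the gene, with capitals for an E-box of the sequence CACCTG, the element bound by Snail-type repressors of junction genes, or a GC box of the sequence GGGCGG, the element bound by Sp1, on either strand. The motifs do not overlap in these sequences. The windows are chr10:81291582-81291831 on the minus strand for Tjp3, and on the plus strand chr13:38151044-38151293 for Dsp, chr5:134985964-134986213 for Cldn3 and chr1:171437311-171437560 for F11r.
Tjp3: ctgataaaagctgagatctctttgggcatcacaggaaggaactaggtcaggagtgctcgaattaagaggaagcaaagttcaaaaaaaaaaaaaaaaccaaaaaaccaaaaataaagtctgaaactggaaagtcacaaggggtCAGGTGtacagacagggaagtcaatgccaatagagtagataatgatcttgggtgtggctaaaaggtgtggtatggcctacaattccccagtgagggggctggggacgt
Dsp: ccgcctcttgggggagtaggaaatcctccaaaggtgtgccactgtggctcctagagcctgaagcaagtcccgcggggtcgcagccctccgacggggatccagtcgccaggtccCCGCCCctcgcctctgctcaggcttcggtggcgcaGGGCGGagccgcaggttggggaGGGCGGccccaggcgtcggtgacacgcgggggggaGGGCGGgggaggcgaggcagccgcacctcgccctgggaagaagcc
Cldn3: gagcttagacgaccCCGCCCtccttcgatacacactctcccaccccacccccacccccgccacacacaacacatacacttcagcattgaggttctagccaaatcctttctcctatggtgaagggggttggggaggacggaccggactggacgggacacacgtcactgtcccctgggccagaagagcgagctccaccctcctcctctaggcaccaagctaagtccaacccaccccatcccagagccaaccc
F11r: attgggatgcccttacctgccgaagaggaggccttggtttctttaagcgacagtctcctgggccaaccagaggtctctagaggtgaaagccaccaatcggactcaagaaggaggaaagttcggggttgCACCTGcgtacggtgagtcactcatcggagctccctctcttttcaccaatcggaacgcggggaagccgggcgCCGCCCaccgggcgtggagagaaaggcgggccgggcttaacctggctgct
The E-box of Tjp3 begins 108 bases before the start and that of F11r 122 bases before it, so that 1 gene of each order holds one. Dsp holds 4 GC boxes and F11r and Cldn3 hold 1 each, while these letters were not found in the window of Tjp3. Among 27025 promoters of this length, 17.1% hold the E-box and 32.9% the GC box on either strand. Of 28 junction genes with a promoter in the table, 5 hold the E-box (17.9%) and 17 the GC box (60.7%). These are matches of letters and were not tested as sites.

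The junction types were then compared by pairs of lineages, over genes above the floor on at least 1 array of the pair. A gene that entered through the array where it is high had to differ to some extent, which is why the same figures are given for all genes under the same rule. Between the zymogenic and pit arrays, 18 junction genes were compared, of which 9 were at least 2-fold lower on the zymogenic array (Cdh1, Cldn18, Ctnna1, Ctnnb1, Dsc2, Dsg2, Dsp, Pkp3 and Tjp3) and 2 at least 2-fold higher (Cgn and Cldn3). Over all genes, 21.3% were lower and 11.8% higher by that rule. The median log2 difference was -2.28 for 4 adherens junction genes, -2.87 for 5 desmosome genes and -0.34 for 8 tight junction genes, against -0.13 for all genes. The adherens median rests on Ctnna1 and Ctnnb1, both measured above the floor. The other medians include values set to the floor, and the desmosome median was -0.85 with a lower floor of 10.9, taken from the 90th percentile, where more genes enter. Where both arrays exceeded the floor, 3 of 5 junction genes were lower (Ctnna1, Ctnnb1 and Dsp) and 0 higher, where all genes had 22.4% lower and 11.6% higher. After quantile normalization 8 junction genes were lower and 2 higher, with 17.7% and 16.9% of all genes.

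Between the zymogenic and parietal arrays, 17 junction genes were compared. On the zymogenic array 7 were at least 2-fold lower, namely Cdh1, Ctnna1, Dsg2, Dsp, Pkp3, Pkp4 and Tjp3, and only Cldn3 was at least 2-fold higher, against 24.0% lower and 8.79% higher for all genes. The median log2 difference was -2.83 for 3 adherens junction genes, -1.26 for 6 desmosome genes and -0.59 for 7 tight junction genes, and -0.29 for all genes. Above the floor on both arrays, 3 of 6 junction genes were lower (Ctnna1, Dsp and Pkp4) and 0 higher, where all genes had 27.9% and 7.75%. Scaled to the bacterial hybridisation controls BioB and BioC, more genes were compared, namely 11 tight junction, 4 adherens junction and 8 desmosome genes and Epcam. Of these, 15 were lower and 1 higher, with 41.9% and 2.79% of all genes. After quantile normalization there were 5 lower and 1 higher, with 13.9% and 14.6% of all genes.

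Parietal and pit cells, which came from the same gastric units, had the fewest junction genes 2-fold apart. Of 17 junction genes compared, Dsc2, Dsg2 and Pkp3 were at least 2-fold lower on the parietal array and Cgn at least 2-fold higher, against 7.70% lower and 14.4% higher for all genes. The median log2 difference was -0.99 for 6 desmosome genes, -0.45 for 4 adherens junction genes and -0.044 for 6 tight junction genes, and 0.085 for all genes. Above the floor on both arrays, 3 of 13 junction genes were lower and 0 higher, with 9.27% and 16.1% for all genes. The direction rests on the scaling here. The BioB and BioC controls averaged 303 for parietal cells, 711 for zymogenic and 712 for pit cells. On scaling to them, 11 tight junction, 4 adherens junction and 8 desmosome genes and Epcam were compared. Of these, 0 were lower and 6 higher on the parietal array, with 0.907% and 37.6% of all genes. The log2 differences of Dsg2, Pkp3 and Dsc2 were then -0.035, -0.30 and 0.0031. After quantile normalization 4 junction genes were lower and 0 higher, with 10.9% and 9.95% of all genes.

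The plot of differences by junction type shows the spread within each type. Taken relative to the median of all genes, the desmosome median between parietal and pit arrays was -1.08 as deposited, -0.97 after quantile normalization, -1.06 on scaling to a common median, and -0.51 on scaling to BioB and BioC. The tight junction median lay between -0.15 and 0.056 of all genes under the same scalings. Between zymogenic and pit arrays, the adherens median relative to all genes lay between -3.09 and -2.15 and the desmosome median between -2.77 and -2.55. The choice among these scalings cannot be settled from the values. The Cre control did not share the offset (its probe sets read 8926 and 9981 for parietal, 8917 and 9620 for pit cells). Those values lay near the largest on the arrays, 12079 for parietal and 11141 for pit cells. Whether Cre could show an offset at that level was not tested.

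**Figure D3:**
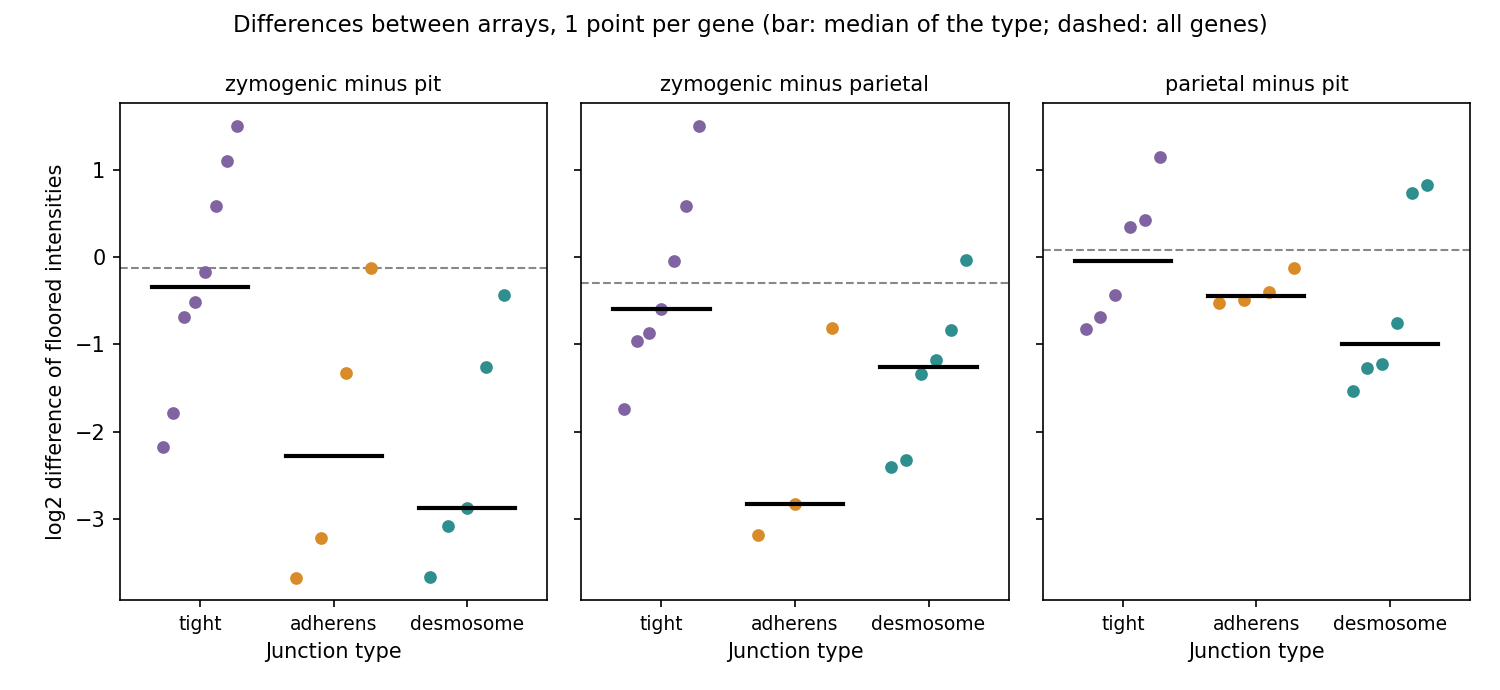
Difference of floored log2 intensity between each pair of arrays for every junction gene above the floor on at least 1 of the pair, 1 point per gene, by junction type. The bar is the median of the type and the dashed line that of all genes, and the desmosome and adherens medians lie below the dashed line in all 3 panels while tight junction genes lie on both sides of it.

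**Figure D4:**
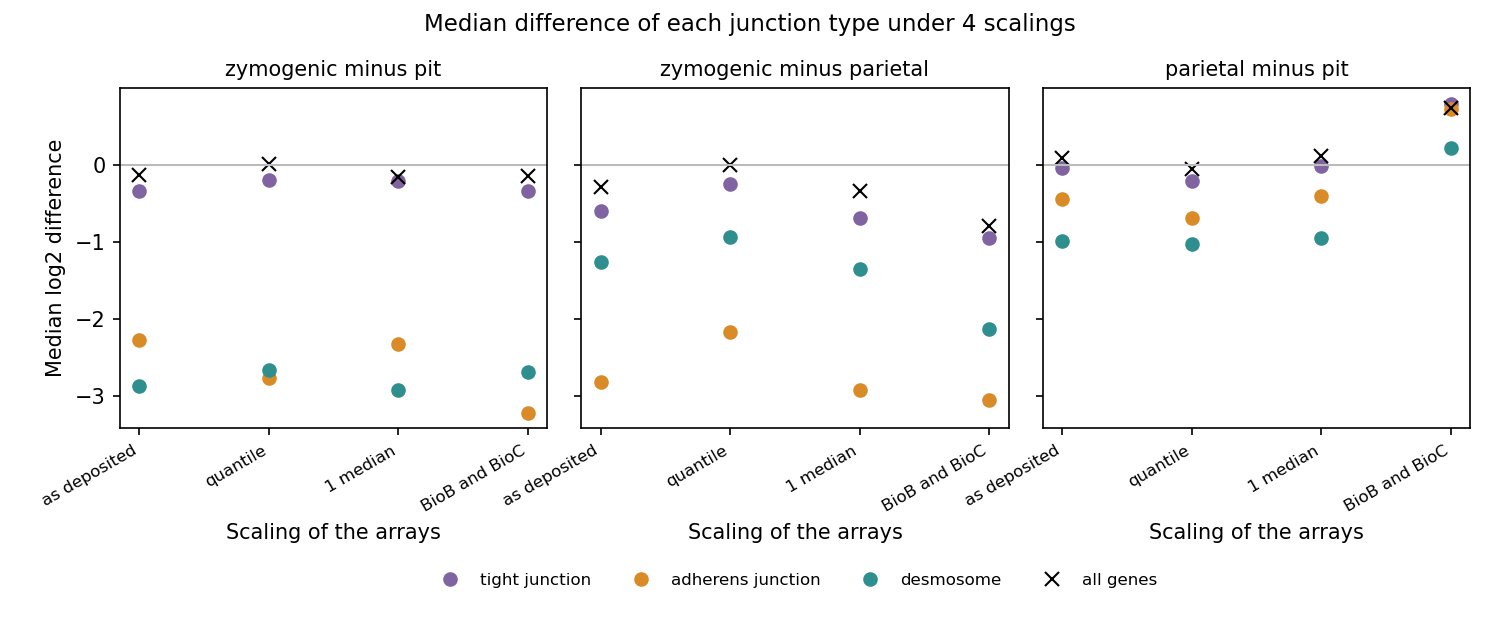
Median log2 difference of tight junction, adherens junction and desmosome genes and of all genes (crosses) for each pair of arrays, with the arrays as deposited, quantile normalized, scaled to 1 median or scaled to the BioB and BioC controls. In the zymogenic panels the adherens and desmosome medians stay below all genes under each scaling, and in the parietal minus pit panel all medians move above 0 with BioB and BioC.

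Against both other arrays at once, 6 of the 19 junction genes were at least 2-fold lower on the zymogenic array (Cdh1, Ctnna1, Dsg2, Dsp, Pkp3 and Tjp3), where 11.1% of all genes were, and Cldn3 was higher, where 6.91% were. On the pit array, Dsc2, Dsg2 and Pkp3 were at least 2-fold higher than on both others, where 5.78% of all genes were, and Cgn was lower, where 2.61% were. On the parietal array no junction gene was 2-fold apart from both others in either direction, where 7.49% of all genes were higher and 0.387% lower. With BioB and BioC scaling, 24 junction genes were above the floor on at least 1 array. Of these, Cgn, Cldn12, Epcam, Pkp2, Pkp4 and Tjp1 exceeded both other collections at least 2-fold in parietal cells (31.5% of all genes). In pit cells no junction gene did so (0.798%). Under that scaling 9 junction genes were lower on the zymogenic array (10.01% of all genes), the 6 above among them, and after quantile normalization 5 of those 6 were, without Pkp3 (7.83%). Pit markers were likewise low on the zymogenic array, and their part in the low junction values there was not tested.

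Genes that work with these junctions were examined from lists of partners. Of 10 desmosome partners, mostly the keratins that desmosomes anchor, 6 were above the floor on at least 1 array of the zymogenic and pit pair, and all 6 were at least 2-fold lower on the zymogenic array, with a median log2 difference of -4.69, where 21.3% of all genes were lower, with a median of -0.13. Krt8, a keratin of simple epithelia, read 5879 in parietal, 155 in zymogenic and 3672 in pit cells. Krt18, its filament partner, read 4436, 487 and 1155. Perp, a membrane protein of desmosomes, read 59.2, 19.7 and 129, in the order of arrays of Pkp3 and Dsg2. Krt19 read 2928, 3.53 and 1322, while Krt20 and Krt7 were high in pit cells alone, at 32.2, 8.83 and 657 and at 7.35, 22.7 and 897.

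Of 20 adherens junction partners, 8 were compared between the zymogenic and pit arrays, with 4 at least 2-fold lower (Actn4, Lima1, Nectin2 and Nectin4) and Pvr higher. Pvr, a nectin-like adhesion protein, read 1078, 3866 and 142 in parietal, zymogenic and pit cells, 27.2-fold higher on the zymogenic than on the pit array and 3.59-fold higher than on the parietal array. Nectin4, an adhesion protein that acts beside E-cadherin, read 53.8 in parietal, 6.87 in zymogenic and 82.5 in pit cells, and Lima1, which links the cadherin complex to actin, read 53.2, 6.12 and 80.5. Actn4, an actin cross-linker, read 70.8, 22.8 and 217, and Nectin2 read 50.9, 7.45 and 46.6. Of 17 tight junction partners, 4 were compared and Igsf5 (a junctional adhesion molecule, at 140, 18.5 and 181) and Vapa (357, 124 and 568) were lower. The median log2 difference was -0.60 for adherens partners and -1.08 for tight junction partners, against -0.13 for all genes. Taken with the polarity, hemidesmosome, gap junction and Epcam-related lists described under other observations, the lists held 84 genes. Of these, 34 were compared, with 20 at least 2-fold lower and 2 higher on the zymogenic array, and a median of -1.30. Of all genes, 21.3% were lower and 11.8% higher. Krt20, among the lower genes, is also 1 of the pit markers.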

How the data were processed

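Intensities of 45101 probe sets on 3 Affymetrix arrays were analysed as the authors deposited them in the series' value table, in linear units with column medians of 4.50, 4.81 and 4.64 on the parietal, zymogenic and pit arrays. How probes were summarised, background corrected, scaled or centred was not given in the sources used here. Amplification used the RiboAmp HS kit and labelling an Enzo kit with biotin, per the labels' protocols. The RNA is called total in the design text and nuclear in the molecule label. Of the probe sets, 34958 name 1 gene in the platform's gene table, and 932 naming several were left out. No array was rescaled in the main setting. Promoters came from RefSeq. The members and lists were chosen with earlier results of these data known. Every member detected on any array is named with its 3 values, other members together with their range, and of each partner list up to 6 genes at least 2-fold above or below both other arrays. Outside this rule, Jup, Cldn4, Cldn5, Cldn13, Cldn15, Crb3, Gja1, Gjb6 and the parietal markers named were given values after these were seen. Before comparison, values were floored and log2 of the deposited intensity was taken. Because no replicate exists, no test was run. Alternatives were 3 scalings, other floors and probe set rules, and a 4-fold threshold. Python 3.11.15, numpy 2.4.6, pandas 2.3.3 and matplotlib 3.10.9 were used, and the calculation was tested on simulated data. The number of arrays limits the precision.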

Additional observations from a re-analysis of the deposited data

How the results depend on the processing

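No paired analysis was possible because each lineage has 1 array, and no replicate could be left out. An alternative counts as moved where a count changed by over 1.5 times or a median log2 difference by more than the probe set SD of 0.48. Reversed means a change of sign where the main log2 difference was at least 1 in size. Of the counts and medians by junction type, 86 values stayed within those limits and 50 moved, and of single genes 251 stayed, 77 moved and 1 reversed. Smaller differences that changed sign are counted as moved or stayed. With BioB and BioC scaling these included parietal minus pit of Cdh1, Cldn18, Ctnna1, Ctnnb1, Ctnnd1, Dsp and Tjp3, and zymogenic minus parietal of F11r. The causes were not tested unless the alternative sets them by construction. Counts are of junction genes at least 2-fold apart, and medians are of log2 differences.

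After quantile normalization the adherens median of zymogenic cells was -2.78 against pit and -2.17 against parietal cells, and 0 genes were higher in parietal than in pit cells. The share of all genes for that count was 9.95%. With arrays scaled to BioB and BioC, 1 gene was higher in zymogenic than in pit cells, 15 were lower in zymogenic than in parietal cells, and 6 were higher and 0 lower in parietal than in pit cells. For all genes these were 12.0%, 41.9%, 37.6% and 0.907% in the same order. The adherens median was -3.23 for zymogenic minus pit and the desmosome median -2.14 for zymogenic minus parietal. For parietal minus pit the tight junction, adherens and desmosome medians were 0.80, 0.73 and 0.23, and Dsc2 reversed to 0.0031.

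With the floor at the 90th percentile (10.9), 2 genes were higher and 12 lower in zymogenic than in parietal cells and 2 higher in parietal than in pit cells. For all genes these were 9.95%, 19.5% and 12.2%. The desmosome median was -0.85 for zymogenic minus pit and the adherens median -1.82 for zymogenic minus parietal. With the floor at the 99th percentile (868) no junction gene was above it, so all 6 counts were 0 and no median could be given, and the probe set SD was 0.19. With the floor as pseudocount, 1 gene was higher in zymogenic (12.3% of all genes) and 0 in parietal (10.5%) than in pit cells.

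With the mean over probe sets, 0 genes were higher in zymogenic than in pit or parietal cells or in parietal than in pit cells, and 4 were lower in zymogenic than in parietal cells. For all genes these were 11.1%, 7.96%, 15.0% and 24.0% in the same order. The medians for zymogenic minus pit were -3.12 for adherens and -1.89 for desmosome genes. With transcript-specific probe sets, 1 gene was higher in zymogenic than in pit cells (11.2% of all genes) and 0 than in parietal cells (9.10%). The adherens median was -3.37 for zymogenic minus pit and the tight junction median -0.56 for parietal minus pit.

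At 4-fold, 0 genes were higher in zymogenic than in pit or parietal cells, 4 were lower in zymogenic than in parietal cells, and 0 were higher and 0 lower in parietal than in pit cells. For all genes these were 3.84%, 3.25%, 7.28%, 2.94% and 1.16% in the same order. Over genes above the floor on both arrays, 0 were higher in any of the 3 pairs, and 3 were lower in zymogenic than in pit and 3 than in parietal cells. The desmosome median was then -1.76 for zymogenic minus pit. Against parietal cells the tight junction, adherens and desmosome medians were -0.043, -1.82 and -1.75. Counts against both other arrays were recomputed under the 3 scalings after seeing the data.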

Other observations

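Lists of neighbouring structures gave further values. Of 15 polarity genes, which set the apical side of the cell, 7 were compared between the zymogenic and pit arrays. Crb3, an apical organiser, read 42.1 in parietal, 18.2 in zymogenic and 59.8 in pit cells, and Mark2, a kinase of the basolateral side, read 24.5, 14.9 and 73.1. Pard3, a scaffold at the tight junction, had the reverse order, at 8.27, 50.7 and 6.97, and was thus above the floor on the same array alone as Cldn3 and F11r. Hemidesmosome genes, which fix cells to the basement membrane, had 4 of 8 above the floor. Plec, which codes for plectin, read 139, 45.5 and 440, and Cd151, a tetraspanin, read 97.0, 25.8 and 122 on the parietal, zymogenic and pit arrays. Of 8 gap junction genes, Gjb6 (39.8, 13.8 and 54.2) and Gja1 (25.2, 13.5 and 7.64) were above the floor on at least 1 array.

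As deposited, a membrane protease that acts on Epcam and its inhibitors were highest in pit cells. The protease St14 (matriptase) read 30.6 in parietal, 6.29 in zymogenic and 96.4 in pit cells. Its inhibitors Spint1 and Spint2 read 31.3, 3.10 and 66.1, and 341, 240 and 729. Scaling to BioB and BioC multiplies parietal values by 1.90 and pit values by 0.808. Spint1 and Spint2 are then higher in parietal than in pit cells, while St14 stays higher in pit cells.

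The remaining cell type lists were set beside the share of all genes above the floor, 15.4% in parietal, 12.6% in zymogenic and 14.4% in pit cells. Of 7 fibroblast markers, 4 were above it in parietal, 2 in zymogenic and 1 in pit cells (summed 313, 155 and 89.2). Of 5 smooth muscle markers 1, 2 and 1 were above it (summed 123, 192 and 129), and of 7 leukocyte markers 2, 3 and 1 (summed 225, 177 and 71.3). The part of these cell types in the results above was not tested. Of 2 erythrocyte markers 0 were, of 2 mucous neck markers Tff2 on the parietal and pit arrays, and of 6 intestinal markers, Cldn7 included, Vil1 in parietal and pit and Fabp2 in pit cells.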
